A study of Mus musculus with 12 samples.

Results

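The icaf and vcaf gates, populations of cancer-associated fibroblasts, were compared here as sorted from the same mouse mammary tumours, under the names that the study's labels give them. Members were chosen by those labels alone, so 3 icaf and 3 vcaf libraries were used, 6 of the 12 RNA-seq libraries of the series, and each icaf library was paired with the vcaf library of the same animal. The tumours came from 3 untreated FVB mice carrying the MMTV-PyMT transgene, collected at 10 weeks of age, in which the mouse mammary tumour virus promoter drives the polyoma middle T antigen in mammary epithelium. All gates were of live cells, negative for a combined CD45, CD31 and EPCAM stain, which marks leukocytes, endothelial cells and epithelial cells, and positive for the platelet-derived growth factor receptor PDGFRb. Within these cells, icaf was the Ly6C+ fraction. The vcaf gate was Ly6C-, CD146+ and PDGFRa-. The other 6 libraries, used here for the common estimate of spread and as side values, were Ly6C-, CD146- and PDGFRa+ cells, either NCAM- (m2cafneg) or NCAM+ (m2cafpos). Every animal carried the transgene, so no tumour-free tissue entered the comparison.

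Fibroblasts with Ly6C and PDGFRa on their surface are known in many organs from the adventitia, the loose connective sheath around larger vessels, where they express Pi16, Dpp4 and matrix genes. Pericytes and vascular smooth muscle cells wrap the vessel wall itself. They depend on PDGF-B from endothelium acting on PDGFRb and on Notch3, carry contractile proteins and ion channels, and respond to vasoactive hormones. CD146, the product of Mcam, is a surface protein of these mural cells and of endothelium.

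The deposited values were gene-level CPM, reads of a gene scaled to a common library total. They resolved into whole reads, so depth was known: the icaf libraries held 50506944 to 52649329 gene-assigned reads and the vcaf libraries 49948755 to 54102316, and 1 read was worth 0.0190 to 0.0198 CPM in icaf and 0.0185 to 0.0200 CPM in vcaf. Between 13488 and 13761 genes reached 1 CPM in the icaf libraries, against 14701 to 14767 in the vcaf libraries. Libraries of one gate resembled each other, with a mean correlation of log2(CPM + 1) across genes of 0.984 within icaf and 0.980 within vcaf, against 0.831 between the gates. No library stood apart from its gate. Values below are listed in the order of mice 27, 30 and 31, and a fold change is the difference of log2(CPM + 1), icaf minus vcaf, from a limma fit with mouse as a block; this scale understates the change of genes with few reads. Adjusted p-values are limma's, with Benjamini-Hochberg adjustment over the 15456 genes tested, and a gene is called higher or lower at 0.05. In bulk libraries of sorted cells, fewer cells that express a gene and less of its RNA per cell cannot be told apart.

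The genes of the sorting antigens separated the gates. Ly6c1, which encodes part of the Ly6C antigen, was at 1004, 1266 and 1049 CPM in icaf, against 20.0, 30.5 and 43.5 CPM in vcaf (log2 fold change 5.16, SE 0.20, adjusted p = 2.0e-09). Its neighbour Ly6c2 was at 35.9, 41.6 and 39.5 CPM in icaf, against 0.64, 1.42 and 1.67 CPM in vcaf. In all 3 mice the icaf library was far above the vcaf library for both genes; 19.1% of the 75-base stretches of Ly6c1 also occur in another gene, so reads may be split between them. Mcam, the gene of CD146, was at 2.51, 1.38 and 6.43 CPM in icaf, against 295, 267 and 245 CPM in vcaf (log2 fold change -6.09, SE 0.33, adjusted p = 2.0e-08). Pdgfra was at 358, 448 and 402 CPM in icaf, against 4.44, 7.26 and 8.49 CPM in vcaf, a log2 fold change of 5.74. Pdgfrb, the antigen on which both gates were positive, was nevertheless lower in icaf, at 168, 159 and 237 CPM in icaf, against 2382, 1999 and 1933 CPM in vcaf (log2 fold change -3.49). The icaf gate had not been selected on CD146 or PDGFRa, and Pdgfra was at 555, 586 and 468 CPM in m2cafneg and 498, 504 and 499.6 CPM in m2cafpos, which were sorted as PDGFRa+. Ncam1 was not part of the icaf or vcaf gating and was higher in icaf (96.5 ± 12.2 CPM in icaf and 18.2 ± 2.01 CPM in vcaf; SD, n = 3 each).

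**Figure D1:**
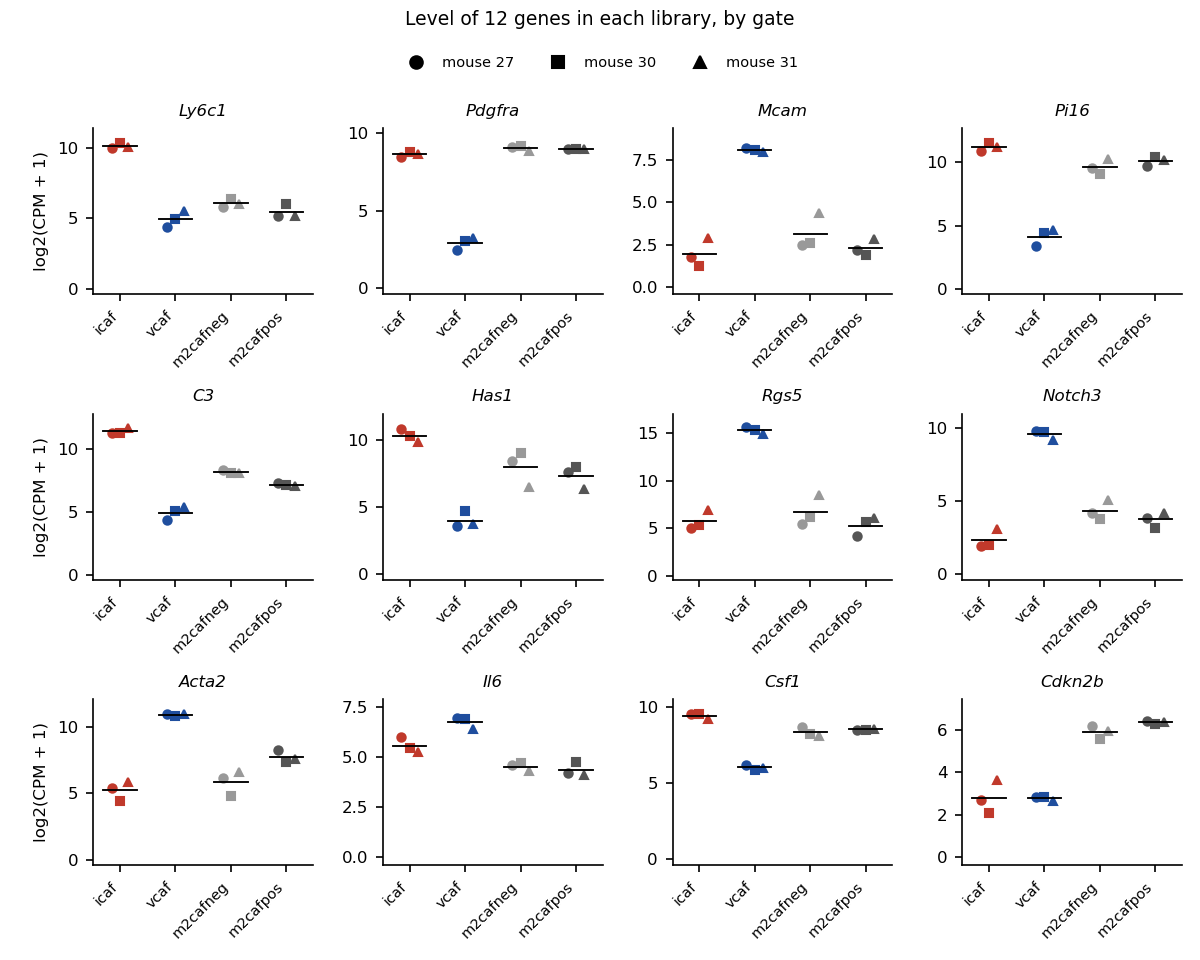
Level of 12 genes in each library as log2(CPM + 1), with the 4 gates on the x axis, one symbol shape per mouse and a bar at the gate mean. The icaf and vcaf points do not overlap for any gene shown except Cdkn2b, and Il6 is the gene among them whose icaf points lie below vcaf but above both m2caf gates.

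Across all genes the gates differed widely. As deposited, 2282 genes (14.8% of those tested) were higher in icaf and 7497 (48.5%) were lower, and 9701 of these 9779 genes moved the same way in all 3 mice. The median log2 fold change of all genes tested was -0.36, and scaling the libraries with the trimmed mean of M-values (TMM) brought it to 0.00 and the split to 3930 higher (25.4%) and 4191 lower (27.1%). All 2282 higher calls held with TMM, 4191 of the lower calls held, and none of the lower calls turned higher. Members' changes below are read against that median, since the direction of a log2 fold change between -0.36 and 0 depends on the scaling. Counts of list members called are read against the shares of all genes given here. All 3 icaf values lay above all 3 vcaf values in 15.3% of genes and below them in 49.3%. Large changes ran both ways: 164 genes (1.06%) were higher by a log2 fold change of at least 4, and 138 (0.893%) were lower by at least that much.

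RNA of cell types that the gates were meant to remove was present in both, and there was more of it in vcaf. Epcam was at 44.6, 54.1 and 115 CPM in icaf, against 415, 483 and 739 CPM in vcaf. The summed level of 20 epithelial genes was 1301 to 3528 CPM in the icaf libraries, against 9816 to 19442 CPM in the vcaf libraries, and all 20 genes were lower in icaf. Mouse 31 had the highest epithelial sum within each of the 4 gates. The epithelial RNA included milk protein: Csn3, the kappa-casein gene, was at 593, 606 and 1560.5 CPM in icaf, against 3549, 4556 and 7651 CPM in vcaf. Macrophage and monocyte genes summed to 108 to 239 CPM in icaf and 624 to 1431 CPM in vcaf, with all 17 tested genes lower in icaf; Cd14, the lipopolysaccharide co-receptor, was at 49.2, 68.6 and 147 CPM in icaf, against 345, 1016 and 888 CPM in vcaf. Endothelial genes summed to 304 to 474 CPM in icaf and 1447 to 1743 CPM in vcaf, with 18 of 20 lower, and Pecam1, the gene of CD31, was at 2.75, 4.66 and 19.6 CPM in icaf, against 45, 67.2 and 96 CPM in vcaf. Esam, an adhesion molecule of endothelium that mural cells can share, was at 3.7, 3.77 and 17.6 CPM in icaf, against 551, 579 and 542 CPM in vcaf. Tek, which encodes the angiopoietin receptor Tie2, was the one endothelial-list gene that was higher in icaf, at 126, 211 and 159 CPM in icaf, against 6.53, 15.2 and 16 CPM in vcaf (log2 fold change 3.67); it is singled out here after its values were seen. Ptprc, the gene of CD45, stayed at 0.76, 0.55 and 0.85 CPM in icaf, against 4.84, 3.05 and 6.61 CPM in vcaf, and the 14 lymphocyte genes together summed to 1.69 to 4.93 CPM in icaf and 14.4 to 17.1 CPM in vcaf. Of these, the one call was Trac, the T cell receptor alpha constant gene, at 0.17, 0.39 and 0.38 CPM in icaf, against 13.1, 11.3 and 9.17 CPM in vcaf. Cd3e, an invariant chain of that receptor, was at 0.42, 0.86 and 1.54 CPM in icaf, against 0.66, 0.18 and 1.14 CPM in vcaf and did not pass.

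Lists of 3 further cell types held calls in both directions: 1 higher and 7 lower of 10 Schwann and nerve genes, 1 and 3 of 8 adipocyte genes, and 3 and 2 of 7 skeletal muscle genes. Schwann and nerve genes summed to 749 to 861 CPM in icaf and 454 to 479 CPM in vcaf, most of it Pmp22 (718, 687 and 806 CPM in icaf, against 295, 287 and 249.6 CPM in vcaf), which fibroblasts also express. Sox10, the transcription factor of neural crest cells that mammary epithelium also uses, was lower in icaf, at 8.47, 12.5 and 23.5 CPM in icaf, against 87.1, 103 and 114 CPM in vcaf, though with the epithelial covariate described next its log2 fold change was 0.37. Among adipocyte genes, Lpl, the lipoprotein lipase, was higher in icaf at 485, 964 and 655 CPM in icaf, against 163, 225 and 122 CPM in vcaf. Fabp4, a fatty acid carrier of adipocytes and capillary endothelium, was lower, at 17.8, 28.5 and 43.3 CPM in icaf, against 293, 701 and 388 CPM in vcaf. Skeletal muscle genes summed to 8.45 to 10.8 CPM in icaf and 7.71 to 11.6 CPM in vcaf, and the skeletal actin gene Acta1, at 2.56, 3.52 and 1.92 CPM in icaf, against 1.42, 1.46 and 2.9 CPM in vcaf, did not pass. Genes that respond to tissue dissociation, mostly immediate early genes, summed to 12837 to 15034 CPM in icaf and 19102 to 24048 CPM in vcaf, and 13 of 16 were lower in icaf; the single higher one was Dusp1 (log2 fold change 0.76). The part of these other cells and states in the differences below was not tested. The fit was repeated with the epithelial level as a covariate, the mean-centred sum of log2(CPM + 1) over the 20 epithelial genes. With it 371 genes were higher (2.4%) and 424 were lower (2.74%), and 117 of 231 called genes among those named kept their call. Because gate is also a term of that fit, the covariate's slope rests on differences within gates. The epithelial sums of the icaf and vcaf libraries do not overlap, so a kept or lost call cannot decide the part of epithelial RNA.

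**Figure D2:**
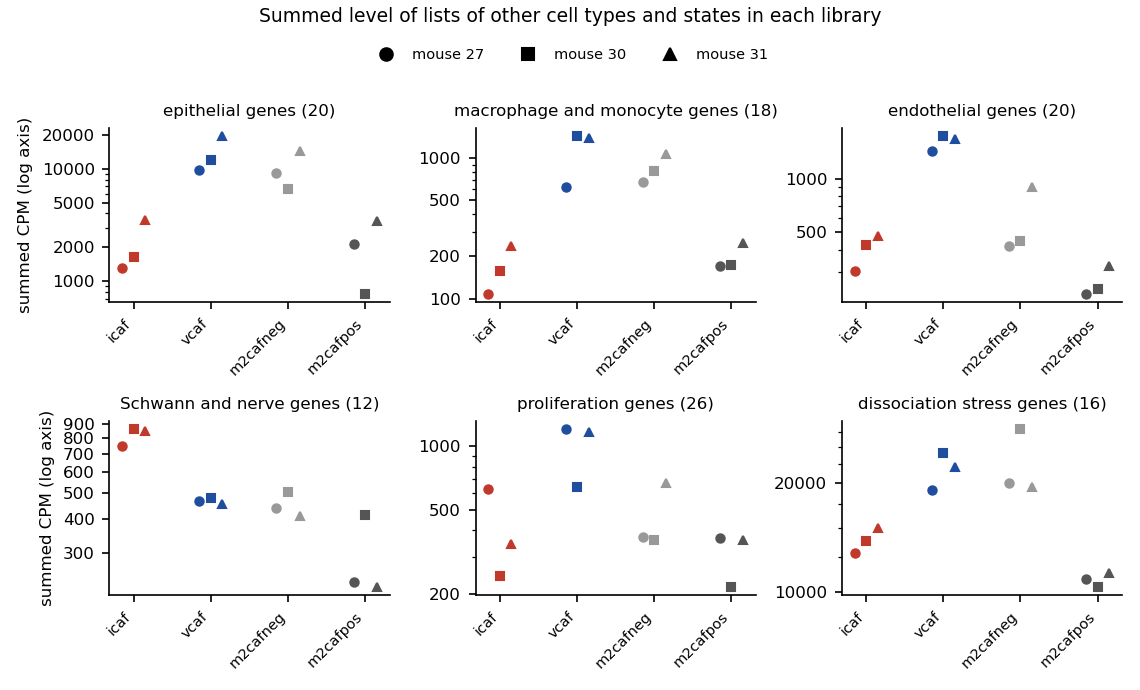
Summed CPM of 6 gene lists (number of genes in brackets) in each library on a log axis, with the 4 gates on the x axis and one symbol shape per mouse. The icaf libraries lie below the vcaf libraries for the epithelial, macrophage, endothelial, proliferation and stress lists and above them for the Schwann and nerve list; the epithelial sums of the m2cafneg libraries, at 6624 to 14450 CPM, overlap those of vcaf.

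Sfrp4, Efemp1 and Pcolce2 were among the 12 named genes with the largest differences upward. Sfrp4, a secreted Wnt-binding protein, was at 2345, 2129.7 and 2216 CPM in icaf, against 1.28, 19.3 and 8.7 CPM in vcaf (log2 fold change 8.18, SE 0.54, adjusted p = 1.2e-07). Efemp1, the fibulin-3 gene, was at 2159, 2260.4 and 2059.8 CPM in icaf, against 5.03, 13 and 8.8 CPM in vcaf. Pcolce2, an enhancer of procollagen cleavage, was at 531, 610.4 and 563 CPM in icaf, against 1.34, 1.37 and 1.76 CPM in vcaf. In each of these every icaf library was above every vcaf library, as in 15.3% of all genes, and the m2caf libraries lay between the gates. Ogn, Fndc1, Clec3b and Gfpt2 had log2 fold changes of 7.09, 7.06, 6.96 and 7.10; they encode osteoglycin, a fibronectin-domain matrix protein, tetranectin and an enzyme of hexosamine synthesis. Rgs5 and Itga7 were among the 12 named genes with the largest differences downward. Rgs5, a G-protein regulator used as a pericyte marker, was at 31, 40.4 and 118 CPM in icaf, against 51484, 41639 and 31133 CPM in vcaf (log2 fold change -9.55, SE 0.51, adjusted p = 2.0e-08), and it alone took 4.14% of all vcaf reads. Itga7, a laminin-binding integrin of muscle, was at 1.48, 1.45 and 3.23 CPM in icaf, against 679.7, 563 and 515 CPM in vcaf (log2 fold change -7.62).

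**Figure D3:**
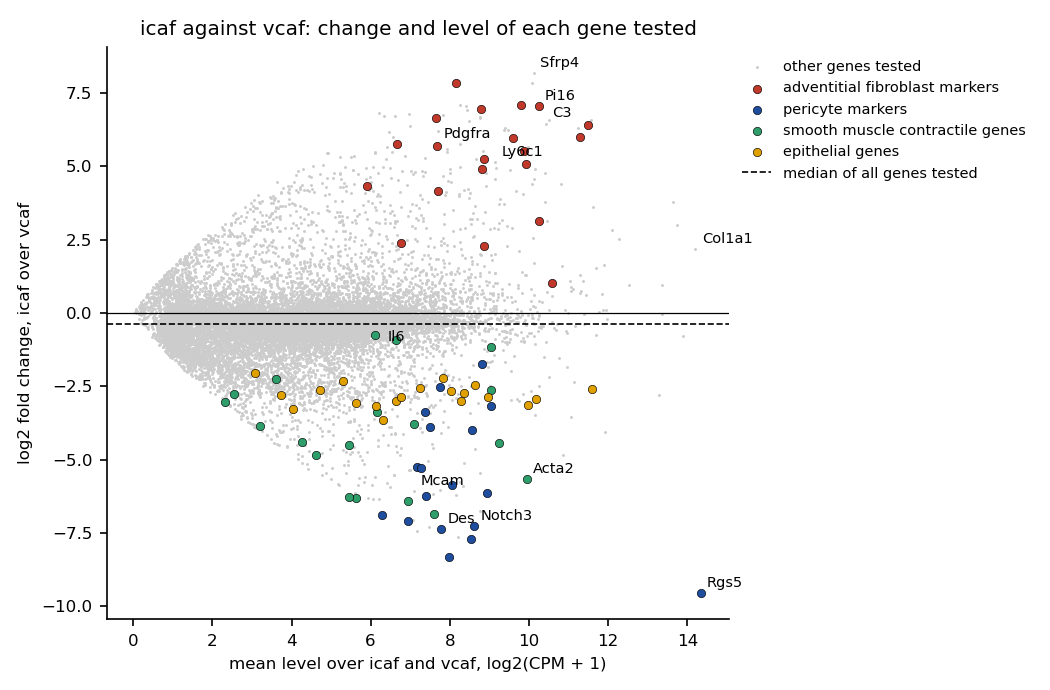
Change against level for the 15456 genes tested: mean log2(CPM + 1) over both gates on the x axis, log2 fold change of icaf over vcaf on the y axis, 4 gene lists in colour and the median of all genes dashed at -0.36. Adventitial markers lie above 0, and pericyte, contractile and epithelial genes lie below it.

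All gene lists used here, among them the pericyte and contractile lists below, were drawn up with earlier results of these data known. Their counts are descriptions. Of all genes tested, 48.5% were lower in icaf. Pericyte markers were lower in icaf without exception. All 18 of them passed the test, with a median log2 fold change of -5.99, against -0.36 for all genes tested; all were lower with TMM too, and 16 stayed lower with the epithelial covariate. Higd1b, a small mitochondrial membrane protein, was at 0.15, 0.53 and 1.11 CPM in icaf, against 551, 547 and 416 CPM in vcaf. Gja4, the gap junction protein connexin 37, was at 1.63, 1.08 and 7.15 CPM in icaf, against 749, 742 and 718 CPM in vcaf. Des, the intermediate filament desmin, was at 1.67, 1.45 and 1.76 CPM in icaf, against 453, 472 and 383 CPM in vcaf (log2 fold change -7.37, SE 0.41, adjusted p = 2.9e-08). Higd1b and Des stayed below 2 CPM in every icaf library. Cox4i2, a cytochrome oxidase subunit of oxygen-sensing cells, was at 0.59, 0.31 and 1.82 CPM in icaf, against 281, 214 and 239.7 CPM in vcaf. Rgs4, another G-protein regulator, was at 9.55, 4.7 and 10.3 CPM in icaf, against 641, 529.6 and 387 CPM in vcaf. Within icaf, mouse 31 had the highest value of each of these genes and of Rgs5, and it also had the highest epithelial and endothelial sums of that gate; the part of those sums was not tested. Summed over the 18 markers, icaf held 403 to 813 CPM, against 38689.9 to 61421 CPM in vcaf and 648 to 1442 CPM in m2cafneg.

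Contractile genes of smooth muscle were also lower. All 19 tested members, of 20 on the list, were called lower, as deposited and with TMM, with a median of -3.87; 10 stayed lower with the epithelial covariate. Acta2, smooth muscle actin and the usual myofibroblast marker, was at 40.5, 20.7 and 57.7 CPM in icaf, against 1941, 1833 and 1988 CPM in vcaf (log2 fold change -5.68, SE 0.28, adjusted p = 1.0e-08). It was at 69, 26.6 and 95.1 CPM in m2cafneg and 297, 165 and 192 CPM in m2cafpos, so that the m2cafpos values lay between icaf and vcaf. Myh11, the smooth muscle myosin heavy chain, was at 0.36, 2.38 and 3.86 CPM in icaf, against 230.3, 271 and 222 CPM in vcaf. Mylk, the kinase that activates myosin, was at 1.33, 2.16 and 3.88 CPM in icaf, against 408, 452 and 291 CPM in vcaf. Neither reached 4 CPM in any icaf library. Cnn1, or calponin, was at 0.44, 0.49 and 1.03 CPM in icaf, against 55.1, 42.7 and 40.6 CPM in vcaf, and Actg2, the enteric smooth muscle actin, was at 0 CPM in 2 icaf libraries and at 0.87 CPM in the third, against 87.6, 98.9 and 101 CPM in vcaf. Casq2, a calcium-storing protein of muscle reticulum, was at 0.095, 0.039 and 0.12 CPM in icaf, against 93.9, 66.1 and 94.7 CPM in vcaf. Icaf and vcaf values did not overlap for any of these 6 genes, which were picked for the largest changes of the list. The same was so, with icaf below, for 49.3% of all genes tested.

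Contractile genes are known targets of serum response factor, which binds the CArG box, written CC, then A or T bases, then GG, 10 bases in all and the same on both strands. A window from 250 bases before to 50 after the gene start, from RefSeq on GRCm38.p6, was available for 15 of the 20 contractile genes, and 2 of them held the box, against 1.81% of the 27025 genes in the table. None of 15 adventitial markers and 1 of 14 pericyte markers held it. The 2 contractile windows are shown up to 10 bases past the start, with the box in capitals. Myl9, the regulatory light chain of smooth muscle myosin, has its box 161 bases before the start (chr2:156775214-156775473, plus strand). Ldb3, a Z-disc protein, has it 35 bases before one of its starts (chr14:34588672-34588931, minus strand).
Myl9: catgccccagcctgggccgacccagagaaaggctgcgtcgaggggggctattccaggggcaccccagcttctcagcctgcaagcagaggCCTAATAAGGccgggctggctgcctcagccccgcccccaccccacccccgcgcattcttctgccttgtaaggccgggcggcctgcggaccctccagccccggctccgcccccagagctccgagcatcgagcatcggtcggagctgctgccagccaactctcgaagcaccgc
Ldb3: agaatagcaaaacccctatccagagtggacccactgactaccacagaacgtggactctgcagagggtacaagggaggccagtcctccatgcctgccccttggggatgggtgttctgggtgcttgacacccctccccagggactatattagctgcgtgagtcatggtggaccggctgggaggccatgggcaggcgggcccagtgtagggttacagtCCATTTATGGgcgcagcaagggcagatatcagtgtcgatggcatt
Myl9 was at 44.6, 53.1 and 62 CPM in icaf, against 1233, 1130.3 and 1118 CPM in vcaf. Ldb3 was at 2.47, 2.93 and 4.28 CPM in icaf, against 14.6, 17.9 and 25.2 CPM in vcaf. The window of Acta2 held no box with these exact letters, and no match says only that the letters are not in this window.

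Most Notch pathway genes tested were lower in icaf, 85.7% against 48.5% of all genes tested. Notch3 and Heyl also stand on the pericyte list, so their values here repeat that list and are not a separate observation. Of the 14 Notch pathway genes tested, 2 were higher in icaf, 12 were lower, 0 did not pass the test, and the median log2 fold change was -1.76; with TMM the counts were 2 higher and 11 lower, and with the epithelial covariate 3 lower. Notch3, the receptor of mural cells, was at 2.75, 2.95 and 7.39 CPM in icaf, against 897, 843 and 594 CPM in vcaf (log2 fold change -7.26, SE 0.30, adjusted p = 2.5e-09). The Notch target Heyl, a transcriptional repressor, was at 18.9, 11.7 and 42.2 CPM in icaf, against 443, 314 and 257 CPM in vcaf. Hey2, a target of the same family, was at 0.038, 0 and 0.198 CPM in icaf, against 15.8, 15.2 and 10.9 CPM in vcaf. Heyl was not confined to vcaf: it was at 357, 109 and 377 CPM in m2cafneg. Notch1 was at 9.23, 5.86 and 14 CPM in icaf, against 81.6, 76.4 and 91.2 CPM in vcaf. The ligand Dll4, which tip endothelial cells make, was at 0.49, 0.79 and 6.69 CPM in icaf, against 14.4, 6.75 and 23.2 CPM in vcaf, and its highest icaf value, in mouse 31, came close to its lowest vcaf value. The 2 members that were higher in icaf were Notch2 and Rbpj. Notch2, another receptor, was at 233, 304 and 177 CPM in icaf, against 97.4, 106 and 80.8 CPM in vcaf. Rbpj, the DNA-binding partner of cleaved Notch, was at 30.9, 32.2 and 26.7 CPM in icaf, against 13.7, 11.5 and 14.1 CPM in vcaf. The window of Hey2 (chr10:30842774-30843033, minus strand) is shown with the letters TGGGAA, on either strand, in capitals, since RBPJ is known to bind them.
Hey2: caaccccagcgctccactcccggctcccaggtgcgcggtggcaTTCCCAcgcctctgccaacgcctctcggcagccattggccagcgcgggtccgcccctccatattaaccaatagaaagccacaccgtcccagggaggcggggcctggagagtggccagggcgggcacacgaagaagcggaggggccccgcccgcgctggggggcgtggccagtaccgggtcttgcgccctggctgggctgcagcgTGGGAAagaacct
Those letters start 207 and 3 bases before the gene start. They occur in the windows of 4 of 13 Notch genes and in 28.3% of all genes, so this is a common string.

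Genes by which vessel walls sense and answer hormones were called in both directions. Of the 27 vasoactive receptor and signalling genes tested, 7 were higher in icaf, 15 were lower, 5 did not pass the test, and the median log2 fold change was -1.60; with TMM they were 8 higher and 14 lower. The share that was lower, 55.6%, was near the 48.5% of all genes tested. The alpha-2 adrenergic receptor Adra2b was at 0.15, 0.22 and 0.36 CPM in icaf, against 84.8, 68.8 and 62 CPM in vcaf. The endothelin receptor Ednrb was at 2.11, 1.69 and 6.75 CPM in icaf, against 236, 160.1 and 169.9 CPM in vcaf (log2 fold change -5.54, SE 0.61, adjusted p = 8.7e-06). Adra2b did not reach 1 CPM in any icaf or m2caf library. Avpr1a, a vasopressin receptor, was at 7.54, 3.16 and 9.13 CPM in icaf, against 119.6, 124 and 96.4 CPM in vcaf. Ramp1, a partner of the CGRP receptor, was at 6.36, 6 and 8.85 CPM in icaf, against 129, 108 and 102 CPM in vcaf. A few receptors were higher instead. The angiotensin type 2 receptor Agtr2 was at 6.88, 24.3 and 19.7 CPM in icaf, against 0.16, 0.28 and 0 CPM in vcaf. Npr1, the natriuretic peptide receptor, was at 51.2, 62 and 78.3 CPM in icaf, against 3.24, 5.67 and 6.04 CPM in vcaf. Adora2b, an adenosine receptor, was at 104, 134 and 98.3 CPM in icaf, against 16.5, 10.1 and 19.4 CPM in vcaf. The icaf and vcaf values of these 3 genes, picked for the largest changes in this direction, did not overlap. The same was so, with icaf above, for 15.3% of all genes tested. With the epithelial covariate the list kept 1 higher and 7 lower.

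Ion channels were mostly lower too, 80.8% against 48.5% of all genes tested, and with TMM 3 were higher and 19 lower. Abcc9 and Trpc6 also stand on the pericyte list. Of the 26 ion channel genes tested, 3 were higher in icaf, 21 were lower, 2 did not pass the test, and the median log2 fold change was -2.55; 7 stayed lower with the epithelial covariate. Abcc9, a subunit of the ATP-sensitive potassium channel, was at 40.6, 32.1 and 59.8 CPM in icaf, against 812, 725 and 577 CPM in vcaf. Trpc6, a receptor-gated cation channel, was at 0.27, 0.39 and 0.24 CPM in icaf, against 189, 133 and 139 CPM in vcaf. Abcc9 was at 8.14, 13.9 and 14.3 CPM in m2cafneg, a range that its icaf values did not reach down to. The calcium-activated chloride channel Ano1 was at 20.1, 18.7 and 67.9 CPM in icaf, against 802, 702 and 779 CPM in vcaf. Kcnmb1, a potassium channel subunit, was at 0.19, 0.24 and 0.28 CPM in icaf, against 49.5, 25.3 and 34.3 CPM in vcaf. Mouse 31 had the highest icaf values of Abcc9 and Ano1. The 3 channels higher in icaf were Cacna1g, Kcnn3 and Kcnma1. Cacna1g, a T-type calcium channel, was at 9.38, 7.57 and 11.9 CPM in icaf, against 0.601, 2.16 and 0.78 CPM in vcaf. Kcnn3 and Kcnma1 stayed under 2 CPM in both gates, with log2 fold changes of 1.01 and 0.70. Of 14 regulators of G-protein signalling (RGS genes) tested, 9 were lower, and as deposited Rgs10 alone was higher. The share that was lower, 64.3%, was not far from the 48.5% of all genes tested. With TMM 2 were higher and 9 lower, and with the epithelial covariate 3 were lower. Rgs5 and Rgs4 also stand on the pericyte list. Rgs16 was at 2.34, 3.05 and 3.98 CPM in icaf, against 379, 354 and 245 CPM in vcaf. Rgs10 was at 11.5, 12.3 and 10.8 CPM in icaf, against 6.25, 6.6 and 6.96 CPM in vcaf.

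The adventitial list was drawn up with earlier results of these data known, so its counts are descriptions. Of all genes tested, 14.8% were higher in icaf. Adventitial fibroblast markers were higher in icaf without exception. All 20 were called, as deposited and with TMM, with a median log2 fold change of 5.62; 16 stayed higher with the epithelial covariate. Pi16, a peptidase inhibitor that marks adventitial fibroblasts, was at 1876, 2928 and 2411 CPM in icaf, against 9.39, 20.6 and 24.3 CPM in vcaf (log2 fold change 7.05, SE 0.26, adjusted p = 1.1e-09). It was not absent elsewhere, with 856, 1353 and 1155 CPM in m2cafpos. Dpt, the matrix protein dermatopontin, was at 5336, 6174 and 5579 CPM in icaf, against 49.3, 88.4 and 65.1 CPM in vcaf. Clec3b was at 807, 1018 and 786 CPM in icaf, against 4.93, 10.2 and 4.08 CPM in vcaf. Sema3c, a secreted semaphorin, was at 411, 471 and 299 CPM in icaf, against 2.36, 3.22 and 3.1 CPM in vcaf and stayed below 25 CPM in each m2caf library. Igfbp6, which binds insulin-like growth factor 2, was at 1063, 2479.9 and 998 CPM in icaf, against 10.1, 42.3 and 21 CPM in vcaf; mouse 30 was the highest of its gate in both. Summed over the 20 markers, icaf held 26635 to 34221 CPM, against 1652 to 1973 CPM in vcaf, 6946 to 9589 CPM in m2cafneg and 9844 to 11895 CPM in m2cafpos.

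Genes of fibrillar collagen and its assembly were mostly higher in icaf, by smaller steps. Of the 21 genes tested, 17 were higher in icaf, 2 were lower, 2 did not pass the test, and the median log2 fold change was 1.13; with the epithelial covariate 4 stayed higher and 1 lower. Col1a1, the alpha-1 chain of type I collagen, was at 30847, 31785 and 30198 CPM in icaf, against 7671, 7267 and 5708 CPM in vcaf (log2 fold change 2.18, SE 0.24, adjusted p = 9.9e-06). Its difference was not past the test with that covariate. Col3a1, of type III collagen, was at 23197, 23934 and 26519.6 CPM in icaf, against 3159, 3106 and 2825 CPM in vcaf. Col14a1, which sits on the surface of fibrils, was at 1463, 1471 and 1273 CPM in icaf, against 11.5, 23.5 and 19.5 CPM in vcaf. Col14a1 thus differed by a log2 fold change of 6.25, against 2.18 for Col1a1. The crosslinking enzyme Lox was at 282, 230.3 and 269 CPM in icaf, against 15.7, 25.7 and 17.1 CPM in vcaf. Its relative Loxl1 was at 1655, 1997 and 1576 CPM in icaf, against 96.7, 154 and 72.5 CPM in vcaf. For both, every vcaf value was below every icaf value. The 2 genes that were lower were Col11a1 and Col5a3. Col11a1, a nucleator of fibrils that tumour fibroblasts are known for, was at 7.27, 2.71 and 16.4 CPM in icaf, against 35.6, 19.6 and 46.8 CPM in vcaf. Col5a3, a type V chain, was at 256, 352 and 216 CPM in icaf, against 778, 789.6 and 422 CPM in vcaf. Col11a1 was at 121, 159.6 and 124 CPM in m2cafpos, above both gates. The summed list stood at 85264 to 87440.2 CPM in icaf, 19158 to 23942 CPM in vcaf and 170836 to 182698 CPM in m2cafpos.

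Small leucine-rich proteoglycans, which bind collagen fibrils and set their width, were higher in 9 of 12 cases, with a median of 2.69. With the epithelial covariate 5 were higher, and Aspn, or asporin, which had not passed as deposited, was called lower. Dcn, or decorin, was at 5572, 6447 and 6071 CPM in icaf, against 37.9, 81.1 and 78 CPM in vcaf (log2 fold change 6.57, SE 0.26, adjusted p = 2.1e-09). Lum, or lumican, was at 1929, 1649 and 2312 CPM in icaf, against 29.5, 35.9 and 49.9 CPM in vcaf. Ogn was at 505, 811 and 494 CPM in icaf, against 2.34, 4.88 and 3.06 CPM in vcaf. Fmod, Aspn and Ecm2 did not pass, with log2 fold changes of 0.15, -0.21 and -0.18.

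Basement membrane genes were called in both directions. As deposited, 38.1% were higher and 52.4% lower in icaf, against 14.8% and 48.5% of all genes tested. Of the 21 genes tested, 8 were higher in icaf, 11 were lower, 2 did not pass the test, and the median log2 fold change was -0.88; 4 stayed higher and 1 lower with the epithelial covariate. The type IV collagen chains Col4a1 and Col4a2, which assemble together, were lower. Col4a1 was at 603, 749 and 841 CPM in icaf, against 4042, 4133 and 3058 CPM in vcaf. Col4a2 was at 315, 374 and 407 CPM in icaf, against 2309, 2417 and 1491 CPM in vcaf. Col18a1, the source of endostatin, was at 161, 136 and 159 CPM in icaf, against 917, 1063 and 640.0 CPM in vcaf. Within vcaf, mouse 31 was the lowest for each of these 3. The laminin alpha chain Lama5 was at 1.37, 0.31 and 4.36 CPM in icaf, against 24.5, 42.3 and 32.5 CPM in vcaf. Nid1, the linker nidogen, was higher, at 1584, 1964 and 1618 CPM in icaf, against 561, 549 and 459.6 CPM in vcaf, and the laminin chain Lamc1 was higher as well (log2 fold change 1.35).

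Integrins were called in both directions too. As deposited, 33.3% were higher and 61.1% lower in icaf, against 14.8% and 48.5% of all genes tested. Of the 18 integrin genes tested, 6 were higher in icaf, 11 were lower, 1 did not pass the test, and the median log2 fold change was -1.35; with the epithelial covariate 1 was higher and 4 were lower. The collagen receptor chain Itga1, of muscle and mural cells, was at 4.14, 3.03 and 5.33 CPM in icaf, against 438, 387 and 292 CPM in vcaf. Itga11, the collagen receptor chain of fibroblasts, was at 238, 269.6 and 263 CPM in icaf, against 6.89, 9.45 and 9.88 CPM in vcaf. Both bind collagen with the same beta-1 partner, and they changed in opposite directions by log2 fold changes of -6.18 and 4.74. Itga7, given above, and Itga4 (log2 fold change -3.11) were lower too. Itga6, at 2.85, 3.6 and 12 CPM in icaf, against 42.7, 51.4 and 51 CPM in vcaf, was lower as well, but with the epithelial covariate its log2 fold change was 0.08.

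Matrix proteases leaned upward. Of the 24 proteases and inhibitors tested, 14 were higher in icaf, 7 were lower and 3 did not pass the test. The median log2 fold change was 1.10. With the epithelial covariate 9 were higher and 1 lower, and 8 of the 9 had been called higher as deposited. Mmp3, or stromelysin, was at 869.6, 568 and 1231 CPM in icaf, against 22.9, 9.04 and 25 CPM in vcaf. Mmp2, or gelatinase A, was at 2117, 2799 and 2671 CPM in icaf, against 155, 237 and 163 CPM in vcaf. Adamts5, an aggrecanase, was at 537, 512 and 448 CPM in icaf, against 15.7, 22.3 and 10.7 CPM in vcaf (log2 fold change 4.91, SE 0.18, adjusted p = 1.1e-09). Its relative Adamts4 changed the other way, at 68.3, 45.7 and 60.9 CPM in icaf, against 445, 428 and 325 CPM in vcaf. The protease inhibitor Serpine2 was at 486, 327 and 483 CPM in icaf, against 8027, 8591 and 5208 CPM in vcaf, lower in all 3 mice.

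Growth factors of vessels were divided between the gates. As deposited, 41.7% were higher and 45.8% lower in icaf, against 14.8% and 48.5% of all genes tested. Of the 24 PDGF, VEGF and angiopoietin genes tested, 10 were higher in icaf, 11 were lower, 3 did not pass the test, and the median log2 fold change was -0.34 (TMM median 0.02); with the epithelial covariate they were 2 higher and 4 lower. Angpt2, the angiopoietin that loosens vessels, was at 3.44, 4.93 and 7.27 CPM in icaf, against 254, 254 and 228 CPM in vcaf (log2 fold change -5.35, SE 0.16, adjusted p = 3.1e-10). Pdgfa was at 14.8, 7.47 and 12.5 CPM in icaf, against 227, 235 and 179 CPM in vcaf; another gene overlaps 26.1% of its exons. The VEGF receptor Flt1, which endothelium shares, was at 0.68, 1.85 and 4.73 CPM in icaf, against 129, 111 and 86.4 CPM in vcaf. All 3 were lower in icaf in every mouse. Vegfd, a ligand of lymphatic growth, was higher in icaf, at 76.4, 109.8 and 92.1 CPM in icaf, against 0.72, 1.53 and 1.76 CPM in vcaf. Angptl1, an angiopoietin-like secreted protein, was higher too, at 25.1, 43.5 and 25.2 CPM in icaf, against 0.2, 0.54 and 0.57 CPM in vcaf. The receptor of Angpt2, Tek, was higher in icaf, as given above, so ligand and receptor ran in opposite directions between the gates.

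Fibroblast and insulin-like growth factors were mostly higher in icaf. Of the 26 genes of the FGF, HGF, IGF and EGF families tested, 14 were higher in icaf, 6 were lower, 6 did not pass the test, and the median log2 fold change was 1.20; 8 higher and 1 lower remained past the test with the epithelial covariate. Fgf7, a factor for epithelium, was at 71.9, 67.6 and 76.6 CPM in icaf, against 0.62, 1.15 and 0.78 CPM in vcaf (log2 fold change 5.31, SE 0.23, adjusted p = 4.3e-09). Fgf10, another such factor, was at 16.9, 16.5 and 14.5 CPM in icaf, against 0.02, 0.68 and 0.12 CPM in vcaf. Igf1 was at 268, 142 and 285 CPM in icaf, against 8.75, 10.0 and 10.7 CPM in vcaf. Mouse 30 had the lowest icaf value of Igf1, which was still above every vcaf value. Hgf, the ligand of Met, was at 8.45, 6 and 7.94 CPM in icaf, against 0.62, 0.17 and 0.16 CPM in vcaf. Hbegf, a ligand of the EGF receptor, was lower, at 15.5, 11.4 and 11.9 CPM in icaf, against 74.3, 93.4 and 74.1 CPM in vcaf. Igfbp7, a binding protein of vessel walls, was lower as well, at 81.9, 74.1 and 95.4 CPM in icaf, against 225, 287 and 169.8 CPM in vcaf.

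Among Wnt genes the ligand Wnt2 and several secreted antagonists were higher in icaf. Of the 27 Wnt pathway genes tested, 15 were higher in icaf, 7 were lower, 5 did not pass the test, and the median log2 fold change was 0.62; 6 stayed higher with the epithelial covariate. Wnt2 was at 209, 177 and 136 CPM in icaf, against 0.04, 4.66 and 1.27 CPM in vcaf (log2 fold change 6.18, SE 0.42, adjusted p = 1.4e-07). Sfrp2 was at 394, 459 and 457 CPM in icaf, against 17.8, 17.7 and 13 CPM in vcaf. Sfrp1, which like Sfrp2 and Sfrp4 binds Wnt proteins, was at 169, 218 and 213 CPM in icaf, against 9.69, 12.3 and 9.86 CPM in vcaf. All of these were higher in every mouse. Wnt10b was at 7.5, 11 and 3.94 CPM in icaf, against 0.02, 0.092 and 0 CPM in vcaf, with no m2caf library above 0.25 CPM. The lower members were present at few CPM. The ligand Wnt5b was at 1.63, 1.14 and 2.46 CPM in icaf, against 7.55, 8.85 and 7.78 CPM in vcaf. Sfrp5, another secreted antagonist, was at 0.11, 0.079 and 0.22 CPM in icaf, against 1.78, 3.94 and 3.67 CPM in vcaf.

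In the BMP and TGF-beta list, 17 of 30 genes were higher and 11 were lower; the median was 1.08; 8 stayed higher with the epithelial covariate. Tgfbr2, the type II TGF-beta receptor, was at 790.2, 1036 and 785 CPM in icaf, against 84.3, 87.3 and 66.1 CPM in vcaf (log2 fold change 3.44, SE 0.10, adjusted p = 2.8e-10). The extracellular BMP modulators Bmper, Fst and Chrd were higher. Bmper was at 180.3, 134 and 181 CPM in icaf, against 2.4, 2.2 and 2.08 CPM in vcaf. Fst was at 36, 53.1 and 22.3 CPM in icaf, against 1.92, 2.51 and 1.82 CPM in vcaf. Chrd was at 18.6, 18.8 and 21.8 CPM in icaf, against 1.64, 0.11 and 1.53 CPM in vcaf. No vcaf library reached 3 CPM for any of the 3. Gdf10, also known as Bmp3b, was at 63.5, 72.5 and 96.8 CPM in icaf, against 2.28, 1.37 and 0.94 CPM in vcaf. The ligand Bmp2 was lower, with mouse 31 the lowest of both gates, at 3.8, 7.02 and 0.89 CPM in icaf, against 18.8, 27 and 12.3 CPM in vcaf. Id1, a transcriptional target of BMP signalling, was lower too, at 3.17, 4.91 and 6.49 CPM in icaf, against 23.9, 20.9 and 19.9 CPM in vcaf.

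Cytokines and chemokines attributed to inflammatory fibroblasts were not uniformly higher in icaf. Of the 26 of them tested, 15 were higher in icaf, 5 were lower, 6 did not pass the test, and the median log2 fold change was 1.14; with TMM they were 17 higher and 4 lower, and with the epithelial covariate 3 higher and 1 lower. Il6, the cytokine most often used to define inflammatory fibroblasts, was at 62.5, 41.7 and 36.8 CPM in icaf, against 121, 117 and 81.3 CPM in vcaf (log2 fold change -1.18, SE 0.17, adjusted p = 6.8e-05). It was lower in icaf in all 3 mice and stayed lower with TMM and with the epithelial covariate, while the m2caf gates were lower still, at 22.9, 24.7 and 18.4 CPM in m2cafneg and 17.2, 25.9 and 15.9 CPM in m2cafpos. Csf3, a neutrophil growth factor, and the chemokine Cxcl2 were lower as well. Cxcl2 was at 6.51, 4.4 and 7.64 CPM in icaf, against 15.2, 26.9 and 26.8 CPM in vcaf, but with the epithelial covariate its log2 fold change turned to 0.12. Higher in icaf was Has1, a hyaluronan synthase, at 1788, 1271 and 900.4 CPM in icaf, against 10.8, 25 and 12.5 CPM in vcaf. The alarmin Il33 was at 1109, 691 and 908 CPM in icaf, against 34.4, 11.2 and 28.6 CPM in vcaf. The macrophage growth factor Csf1 was at 752, 759 and 604 CPM in icaf, against 73.8, 58.4 and 64.3 CPM in vcaf (log2 fold change 3.41, SE 0.13, adjusted p = 1.1e-09). Within icaf, Has1 and Csf1 were lowest in mouse 31 and Il33 in mouse 30. The monocyte attractant Ccl7 was at 528, 195 and 125 CPM in icaf, against 29.4, 28 and 13.3 CPM in vcaf, with mouse 27 highest in both gates. Cxcl14 was at 517, 334 and 583 CPM in icaf, against 25.9, 17.8 and 16.3 CPM in vcaf. Cxcl13, a B cell attractant, was at 12.4, 15.3 and 39.4 CPM in icaf, against 1.6, 0.91 and 0.078 CPM in vcaf. The list therefore included both directions, and its macrophage-expressed members sit beside macrophage sums that were lower in icaf; the part of that RNA in these values was not tested.

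Complement genes were mostly higher in icaf. Of the 23 complement genes tested, 13 were higher in icaf, 7 were lower, 3 did not pass the test, and the median log2 fold change was 1.12; with the epithelial covariate they were 6 higher and 1 lower. C3, the central component, was at 2493, 2414 and 3215 CPM in icaf, against 18.9, 33 and 40.9 CPM in vcaf (log2 fold change 6.46, SE 0.21, adjusted p = 4.7e-10), and in the m2caf gates it was between 134 and 318 CPM. C4b was at 2331, 2246 and 3285 CPM in icaf, against 102, 82.3 and 96.9 CPM in vcaf; 22.7% of its 75-base stretches also occur in another gene, and its near copy C4a had a log2 fold change of 4.28. Cd55, which protects cells from complement, was at 424, 473 and 278 CPM in icaf, against 13.5, 18.5 and 33.9 CPM in vcaf. Masp1, a protease of the lectin pathway, was at 114, 78.7 and 172 CPM in icaf, against 3, 3.66 and 6.68 CPM in vcaf. C1qb, C5ar1 and Cfp were among the lower members. C1qb, made by macrophages, was at 9.84, 9.89 and 16.6 CPM in icaf, against 52.6, 57 and 62.1 CPM in vcaf, and it stands on the macrophage list too.

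Genes of antigen presentation and of NK or T cell ligands were called in both directions. As deposited, 34.6% were higher and 42.3% lower in icaf, against 14.8% and 48.5% of all genes tested. The TMM shares were 38.5% and 23.1%, against 25.4% and 27.1% of all genes. Of the 26 genes tested, 9 were higher in icaf, 11 were lower, 6 did not pass the test, and the median log2 fold change was -0.21, against 0.18 with TMM, where the counts were 10 higher and 6 lower. With the epithelial covariate 1 was higher and 1 lower, and the higher one had not been called higher as deposited. Nt5e, or CD73, which makes adenosine from AMP, was at 105, 79.2 and 61.5 CPM in icaf, against 5.43, 13.9 and 7.92 CPM in vcaf. Nectin2, a ligand of T and NK cell receptors, was at 19.9, 17.2 and 21.5 CPM in icaf, against 118, 102 and 103 CPM in vcaf. Nectin3, its relative, was at 20.2, 17.2 and 14.6 CPM in icaf, against 7.37, 7.32 and 4.68 CPM in vcaf. The nectins thus ran in opposite directions, by log2 fold changes of -2.41 and 1.31. Vtcn1, the checkpoint ligand B7-H4, which mammary epithelium expresses, was at 1.31, 0.85 and 1.84 CPM in icaf, against 8.59, 4.95 and 13.3 CPM in vcaf. Icosl, the ligand of the co-stimulatory receptor ICOS, was at 30.1, 38.2 and 52.1 CPM in icaf, against 14.7, 8.28 and 9.98 CPM in vcaf. Irf1, an interferon-induced factor, was at 45.2, 45.4 and 55 CPM in icaf, against 93.4, 170.0 and 120.2 CPM in vcaf, but its log2 fold change of -1.34 was -0.03 with the epithelial covariate.

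The series is titled for senescent stroma, and cell cycle inhibitors did not separate these gates in one direction. Of the 24 cell cycle arrest and senescence genes tested, 6 were higher in icaf, 15 were lower and 3 did not pass the test. As deposited, 25% were higher and 62.5% lower, against 14.8% and 48.5% of all genes tested. The median log2 fold change was -0.65. With TMM they were 6 higher and 10 lower, and with the epithelial covariate 3 lower. The TMM shares were 25% and 41.7%, against 25.4% and 27.1% of all genes. Cdkn2a, the gene of p16 and p19ARF, was at 0.11, 0.12 and 0.32 CPM in icaf, against 0, 0.13 and 0.55 CPM in vcaf, and did not pass (adjusted p = 0.9). Cdkn2b, the gene of p15, was at 5.38, 3.24 and 11.3 CPM in icaf, against 6.23, 6.23 and 5.29 CPM in vcaf, and did not pass either (log2 fold change 0.01, SE 0.26, adjusted p = 0.99). In m2cafneg Cdkn2b was at 71.6, 46.6 and 61.4 CPM and in m2cafpos at 86.7, 78 and 83.3 CPM, so none of the 6 icaf and vcaf libraries reached its level there. Cdkn1a, the gene of p21, was lower in icaf, at 87.2, 103 and 110.4 CPM in icaf, against 210.1, 190.0 and 151 CPM in vcaf (log2 fold change -0.86, SE 0.15, adjusted p = 3.1e-04). Its values did not overlap between the gates, and its call held with TMM but not with the epithelial covariate. The inhibitor gene Cdkn1c was higher instead, at 6.12, 9.75 and 8.79 CPM in icaf, against 3.54, 4.66 and 2.0 CPM in vcaf. Its log2 fold change was 1.09, and its call also held with TMM but not with that covariate. Another gene overlaps 30.7% of the exonic bases of Cdkn1c. The cyclin D genes were lower. Ccnd1, 23.4% of whose exonic bases another gene overlaps, was at 18.6, 14.3 and 25.4 CPM in icaf, against 160.2, 91.8 and 141 CPM in vcaf. Ccnd2 was at 209.6, 113 and 185 CPM in icaf, against 589, 397 and 382 CPM in vcaf. Both were lower in every mouse, and both calls held with the epithelial covariate. Plaur, the urokinase receptor, was at 117, 69.6 and 53.4 CPM in icaf, against 34.7, 27.9 and 34.9 CPM in vcaf, but with that covariate its log2 fold change turned to -0.20. Gdf15, a stress-induced hormone, was at 7.37, 5.03 and 4.77 CPM in icaf, against 22.9, 19.8 and 15.4 CPM in vcaf.

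Transcription factors of mesenchyme were found on both sides. As deposited, 37.8% were higher and 48.6% lower in icaf, against 14.8% and 48.5% of all genes tested. Of the 37 factors tested, 14 were higher in icaf, 18 were lower, 5 did not pass the test, and the median log2 fold change was -0.18; with TMM they were 17 higher and 16 lower, and with the epithelial covariate 4 higher and 4 lower. Osr1 and Osr2, zinc finger factors of connective tissue, were higher. Osr1 was at 271, 288 and 365 CPM in icaf, against 11.9, 9.3 and 12.5 CPM in vcaf (log2 fold change 4.65, SE 0.13, adjusted p = 2.0e-10). Osr2 was at 117, 165 and 81.9 CPM in icaf, against 4.16, 8.85 and 3.63 CPM in vcaf. Foxp2, a forkhead factor, was at 4.81, 5.29 and 6.2 CPM in icaf, against 0, 0 and 0.078 CPM in vcaf, with reads in 1 vcaf library. Lower in icaf were Epas1, Foxs1, Tbx2 and Nr2f2. Epas1, or HIF-2 alpha, was at 14.8, 11.6 and 28.9 CPM in icaf, against 671, 643 and 584 CPM in vcaf (log2 fold change -5.13, SE 0.24, adjusted p = 6.9e-09). Foxs1, a factor of mural cells, was at 2.22, 1.18 and 2.65 CPM in icaf, against 77.1, 83.6 and 63.1 CPM in vcaf. Tbx2, a repressor of the T-box family, was at 0.42, 0.39 and 0.77 CPM in icaf, against 36.3, 38.9 and 17.4 CPM in vcaf. Within vcaf, mouse 31 was the lowest for each. Nr2f2, or COUP-TFII, was at 8.07, 8.39 and 11.9 CPM in icaf, against 214, 217 and 121 CPM in vcaf. Of 19 Hox genes tested of 39, 9 were lower and 2 higher; with TMM 3 were lower and 3 higher, and with the epithelial covariate none passed. As deposited, 47.4% of the Hox genes were lower, close to the 48.5% of all genes. Hoxc4 was at 10.6, 14.4 and 10.5 CPM in icaf, against 5.89, 5.77 and 3.29 CPM in vcaf. Hoxc10 was at 0, 0 and 0.079 CPM in icaf, against 2.04, 2.77 and 1.67 CPM in vcaf; in icaf it had reads in mouse 31 alone. The lower calls of Hoxd9 and Hoxb4 were lost with TMM.

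Retinoid and lipid mediator genes were mostly higher in icaf. Of the 23 genes tested, 12 were higher in icaf, 4 were lower, 7 did not pass the test, and the median log2 fold change was 0.65; with TMM they were 16 higher and 4 lower, and with the epithelial covariate 5 higher. Aldh1a3, an enzyme that makes retinoic acid, was at 198, 155 and 148 CPM in icaf, against 13.9, 7.28 and 26.5 CPM in vcaf. Aldh1a1, of the same step, was at 14.2, 73.5 and 45.1 CPM in icaf, against 0.58, 2.68 and 0.71 CPM in vcaf. Mouse 27 had the highest icaf value of Aldh1a3 and the lowest of Aldh1a1. Cyp26b1, which degrades retinoic acid, was lower, at 1.16, 3.3 and 2.1 CPM in icaf, against 15.8, 29.2 and 11 CPM in vcaf, a log2 fold change of -2.57 that was 0.02 with the epithelial covariate. The retinoid carrier Crabp2 was at 9.19, 8.86 and 18.9 CPM in icaf, against 37.4, 43.7 and 73.3 CPM in vcaf. Both were lower in icaf in every mouse. Ptgis, prostacyclin synthase, was at 241, 159 and 141 CPM in icaf, against 2.34, 2.48 and 4.08 CPM in vcaf (log2 fold change 5.50, SE 0.24, adjusted p = 4.1e-09). Lpar1, a receptor of lysophosphatidic acid, was at 324, 332 and 246 CPM in icaf, against 10.1, 8.65 and 9.74 CPM in vcaf.

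Guidance genes were called in both directions, with 11 of 32 higher and 11 lower, and 14 higher and 9 lower with TMM. As deposited that was 34.4% each way, against 14.8% higher and 48.5% lower of all genes tested. The TMM shares were 43.8% and 28.1%, against 25.4% and 27.1% of all genes. The median log2 fold change was 0.16, against -0.36 for all genes. With the epithelial covariate 5 guidance genes were higher and 1 lower. The class 3 semaphorins Sema3d and Sema3e were higher, as was Sema3c. Sema3d was at 29.2, 31.5 and 23.4 CPM in icaf, against 1.02, 0.67 and 0.39 CPM in vcaf. Sema3e was at 24.1, 19.5 and 15.7 CPM in icaf, against 0.04, 1.05 and 0.078 CPM in vcaf. Neither reached 2 CPM in vcaf. Plxnb1, a semaphorin receptor, was at 2.15, 1.55 and 4.34 CPM in icaf, against 60.5, 63.5 and 60.2 CPM in vcaf. Unc5b, a netrin receptor, was at 4.84, 2.48 and 10.7 CPM in icaf, against 97.9, 83 and 61 CPM in vcaf. The Eph receptor Epha3 was at 18.5, 19.8 and 21.1 CPM in icaf, against 1.16, 1.22 and 1.45 CPM in vcaf.

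Most metabolic genes were lower in icaf, with small median changes, and fewer of these calls held with TMM. Of 23 oxidative phosphorylation genes tested, 21 were lower and 2 did not pass, with a median of -0.61; with TMM 8 were lower and 1 higher, and with the epithelial covariate 1 was lower. The TMM share that was lower, 34.8%, stands beside 27.1% of all genes. Uqcrfs1, of respiratory complex III, had the largest change of the list, at 88.5, 82.1 and 86.8 CPM in icaf, against 194, 175 and 196 CPM in vcaf. Of the 21 glycolysis and hypoxia genes tested, 2 were higher in icaf, 15 were lower, 4 did not pass the test, and the median log2 fold change was -0.78; with TMM 4 were higher and 11 lower, and with the epithelial covariate 1 was lower. Pfkl, the liver-type phosphofructokinase, was at 110.3, 69.2 and 132 CPM in icaf, against 478, 373 and 644 CPM in vcaf. Adm, the vasodilator adrenomedullin, a hypoxia target, was higher instead, at 652, 761 and 939 CPM in icaf, against 23.6, 15.4 and 19.8 CPM in vcaf (log2 fold change 5.26, SE 0.34, adjusted p = 9.5e-08). Hk2, a hexokinase, was also higher, at 34.3, 23.6 and 16.1 CPM in icaf, against 16.4, 7.8 and 10.5 CPM in vcaf, with values that overlapped between the gates and a log2 fold change that turned to -0.53 with the epithelial covariate. All 26 proliferation genes were lower, with a larger median change of -1.35 (-0.95 with TMM). With TMM 20 stayed lower, 76.9% against 27.1% of all genes, and with the epithelial covariate 2 did. Mki67, the Ki-67 antigen, was at 10.8, 3.91 and 5.86 CPM in icaf, against 32.2, 25.5 and 20.8 CPM in vcaf. Top2a, a topoisomerase, was at 27.1, 9.73 and 14.5 CPM in icaf, against 65.7, 32.6 and 62.9 CPM in vcaf. Their levels in m2cafneg were 7.31, 4.72 and 14.4 CPM for Mki67 and 18.5, 14.3 and 31.3 CPM for Top2a.

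**Figure D4:**
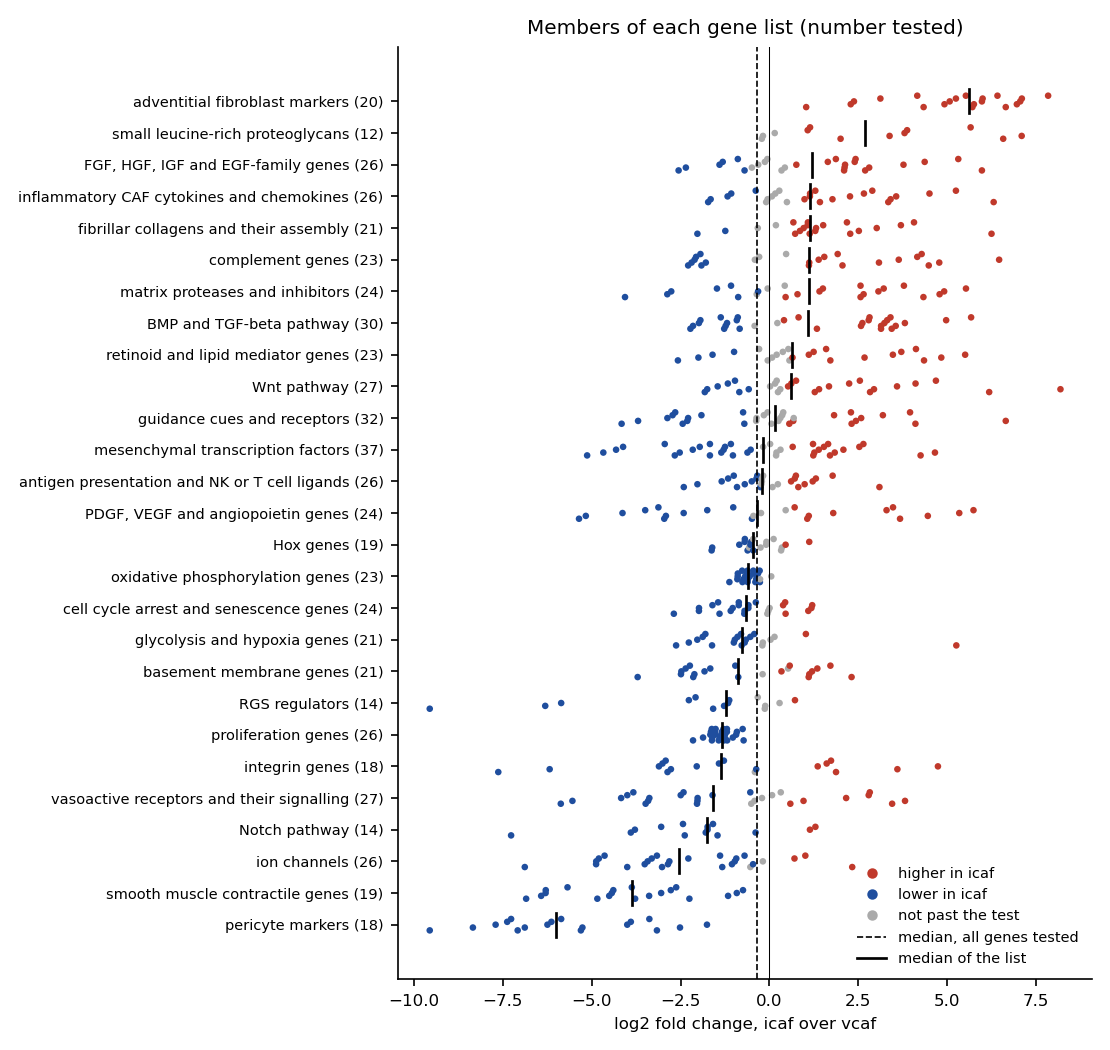
Log2 fold change of icaf over vcaf for each tested member of 27 gene lists, one row per list with the number tested in brackets, coloured by the limma call, with the list median as a bar and the median of all genes dashed at -0.36. The adventitial list at the top has every member above 0, the pericyte and contractile lists at the bottom have every member below 0, and the cytokine list spans both sides.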

How the data were processed

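Bulk RNA-seq of 12 sorted fibroblast libraries, 4 gates from each of 3 mice, was used as 1 gene table. Per the labels' protocols, tumours were digested with collagenase and DNase, sorted cells were lysed directly, RNA was purified with a micro kit, and libraries were sequenced on an Illumina instrument. Per the submitters' processing notes, the genome was mm10 and the tools were DRAGEN and bcl2fastq. Their versions, the annotation and the strand setting are not given in the material used.

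The deposited values are CPM, which the authors computed from reads assigned to genes; each column sums to 1000000. All values were whole multiples of 1 read within 0.001 reads, so reads were recovered, and library totals ranged from 43898839 to 55363203. Of 55774 lines, 287 repeated an identifier with the same values, which left 55487 genes. No value column was left unmapped. One vcaf title is misspelled (vacf) and was read as vcaf.

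Testing covered the 15456 genes that reached 1 CPM in 3 or more libraries. It used log2(CPM + 1) and limma (version 3.58.1, under R version 4.3.3), with a mean-variance trend, gate and mouse as terms, all 12 libraries for the spread, and Benjamini-Hochberg adjustment at 0.05. The mouse numbers pair the libraries because they are animals; deviations of same-mouse icaf and vcaf libraries from their gate means correlated at 0.289, 0.257 and 0.298. P-values rest on the spread left after the gate and mouse terms, pooled over the 4 gates of these 3 mice and moderated across genes. As alternatives, edgeR 4.0.16 (quasi-likelihood) and DESeq2 1.42.0 were run on the recovered reads, beside other scalings, a smaller pseudocount, no filter, no block, 6 libraries alone, the epithelial covariate and each library left out. The limma step was tested on simulated data.

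Named genes included the 12 largest called changes each way with a mean of at least 10 CPM in the higher gate. Gene models known only by a number or clone name, and pseudogenes, were left out of these 12. Also named were the sort genes, fixed genes of interest, and leading and opposing members of each programme among 36 lists. Leading genes of the other cell types and the genes with most reads were added. Members and lists were chosen with earlier results of these data known. Sharing of sequence was counted over 75-base stretches of the transcripts in GENCODE M21, which held 99.5% of the identifiers. Promoter windows came from RefSeq tables on GRCm38.p6. Shares of the motif and of calls are descriptions. Figures were drawn with matplotlib 3.10.9.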

Additional observations from a re-analysis of the deposited data

How the results depend on the processing

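The counts of genes depended on scaling and on the epithelial covariate. Against 2282 higher and 7497 lower in the limma fit on the deposited CPM, there were 3930 and 4191 with TMM scaling, 3968 and 4170 with median-of-ratios scaling, 3844 and 4067 with edgeR, 4024 and 4222 with DESeq2, and 371 and 424 with the epithelial covariate. TMM scaling moved the median log2 fold change of all genes by 0.36. EdgeR and DESeq2 changed the model together with the scaling, and for these and for the covariate the cause was not tested. A pseudocount of 0.1 gave 2295 and 7423, no filter 2387 and 8073, and the 6 icaf and vcaf libraries alone 2210 and 7203. Without the replicate block there were 2147 and 7118 calls, so the pairing by mouse moved neither count by more than 1.5 times. Leaving out 1 library at a time gave 2042 to 2184 higher and 6505 to 7251 lower.

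Of 234 named genes that were called, 231 to 233 kept their call and direction in each alternative other than the covariate. Most of them were named for large called changes, so this does not stand for all calls. Of all 9779 calls, 6473 were also past the threshold with TMM scaling, 6336 with edgeR and 6487 with DESeq2. With the epithelial covariate, 117 of 231 kept the call, 107 were no longer past the threshold and 7 turned direction: Itga6 to 0.080, Cxcl2 to 0.12, Plaur to -0.20, Hoxd9 to 0.012, Cyp26b1 to 0.019, Hk2 to -0.53 and Sox10 to 0.37, all as log2 fold changes and with the cause not tested. The genes that were not called had no stable sign. Cdkn2a was at 0.13 with a pseudocount of 0.1, 0.030 with TMM, 0.029 with median-of-ratios, 0.26 with edgeR, 0.34 with DESeq2 and -0.20 to 0.089 with a library left out. Cdkn2b was at -0.017 with a pseudocount of 0.1 and -0.42 to 0.30 with a library left out. Cd3e was at -0.74 with the covariate and -0.20 to 0.46 with a library left out, and Acta1 at -1.47 and -0.23 to 1.08. CT010467.1 was at 0.37 with TMM, 0.38 with median-of-ratios, 0.36 with edgeR, 0.36 with DESeq2, 1.302 with the covariate and -0.27 to 0.20 with a library left out.

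In the vcaf libraries 1 read was worth up to 0.0200 CPM, so values well below 1 CPM, such as those of Cdkn2a, rest on few reads and carry wide counting error.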

Other observations

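Among the 12 named genes with the largest changes in each direction were genes of no list. Tmeff2, a transmembrane protein with follistatin domains, was higher in icaf, at 417, 429.6 and 506 CPM in icaf, against 2.18, 3.7 and 3.94 CPM in vcaf. Cmah, which makes the sialic acid Neu5Gc, was at 272, 261 and 205 CPM in icaf, against 0.28, 2.16 and 1.69 CPM in vcaf. Akr1c18, which inactivates progesterone, was at 143, 209 and 82.6 CPM in icaf, against 0, 0.63 and 0.078 CPM in vcaf. The interferon-inducible gene Ifi205 was at 613, 795 and 638 CPM in icaf, against 3.38, 6.36 and 4.27 CPM in vcaf, and 16.7% of its 75-base stretches also occur in another gene. Olfr558, an odorant receptor gene, was lower in icaf, at 0.27, 0.41 and 1.64 CPM in icaf, against 314, 273 and 276 CPM in vcaf. Adap2, a GTPase activator for Arf proteins, was at 1.1, 1.51 and 3.19 CPM in icaf, against 503, 506 and 348 CPM in vcaf. Rasl12, a Ras-like protein, was at 0.51, 0.69 and 2.02 CPM in icaf, against 318, 278 and 203 CPM in vcaf. Serpina1b, one of several alpha-1-antitrypsin genes of mouse, was at 0.99, 0.43 and 2.81 CPM in icaf, against 389.8, 325 and 333 CPM in vcaf, with 19.0% of its stretches shared with another gene. The call was a condition for naming these 8 genes, as was the same direction in all 3 mice. Their icaf and vcaf values did not overlap, as in 15.3% of all genes with icaf above and 49.3% with icaf below. All 8 were also called with TMM scaling.

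Of the genes with the most reads in either gate, Gsn, the actin-severing protein gelsolin, was at 21062, 24972 and 25255 CPM in icaf, against 2016, 1653 and 1473 CPM in vcaf. Sparc, a collagen-binding matrix protein, was at 14179, 14354 and 13346 CPM in icaf, against 7444, 7141 and 7035 CPM in vcaf. Actb, the cytoplasmic actin often used for reference, was at 12714, 10241 and 10579 CPM in icaf, against 21117, 19159.7 and 17935 CPM in vcaf; it was lower as deposited and not past the test with TMM. Trf, the iron carrier transferrin, which lactating mammary epithelium secretes, was at 1899.8, 1528 and 4588 CPM in icaf, against 11813, 15037 and 24643 CPM in vcaf, with another gene model over 63.5% of its exons. In m2cafneg it was at 12364, 8247 and 18155 CPM and in m2cafpos at 2673, 1522 and 4442 CPM. CT010467.1, a model without a common name that other genes overlap over 73.9% of its exons, was at 7270.3, 10341 and 13012 CPM in icaf, against 6845, 14466 and 10731 CPM in vcaf, and did not pass.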
